A study of Mus musculus with 12 samples.

Results

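The comparison set 3 whole brains of mice homozygous for the h4 allele of Rorb against 3 whole brains of mice homozygous for the h2 allele, which makes 6 of the 12 libraries of the study, with every measured gene as the unit of the test. The members were taken by the genotype in the labels, Rorbh4/h4 and Rorbh2/h2. All mice were 6 weeks old and untreated, and the study's other libraries came from 3 wild type (WT) mice and 3 Rorbh1/h1 mice on C57BL/6J. The h2 mice were on the B6(Cg)-Tyrc-2J/J background, an albino line that carries a mutant tyrosinase gene, and the h4 mice on B6.129S7-Il1r1tm1Imx/J, a line with a targeted allele of the interleukin 1 receptor gene Il1r1. Allele and background therefore cannot be told apart in this contrast. The sources used here do not say which DNA change makes each Rorb allele, and the labels name no litter. In bulk tissue, fewer cells of a type and less RNA per cell cannot be told apart.

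Rorb encodes RORβ, a nuclear receptor that binds DNA as a monomer at sites with the core AGGTCA preceded by an A and T rich stretch. ROR proteins activate transcription at these sites, and the REV-ERB receptors, encoded by Nr1d1 and Nr1d2, repress it at the same sites, so both families meet on clock genes such as Arntl (BMAL1). In the brain, RORβ is known for marking layer 4 of the sensory neocortex, and for its place in retina, thalamus and spinal cord circuits. The high stepper mutants of the Rorb series take their name from their gait.

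The libraries held 14513825 to 24694178 expected counts in h2 and 17667258 to 18388706 in h4. A level is given in CPM, the expected count scaled to a library total of 1e6, and a fold change is h4 against h2. Xist, which only cells with 2 X chromosomes express, was above 100 CPM in 1 of 3 h2 libraries (replicate 2) and in 2 of 3 h4 libraries (replicates 1 and 3). The Y-linked Ddx3y was near 0 in those libraries and at 96.1 to 104 CPM in the rest. The mix of sexes thus differed between the groups, and a fit with Xist as a covariate stands beside the main counts. Brain markers were present in every library: the 17 myelin genes summed to 13250 to 14340 CPM in h2 and to 13310 to 14330 in h4, and the 8 pan-neuronal genes to 6502 to 6625 and 6365 to 6435.

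Of 15977 genes tested, 469 passed an adjusted p of 0.05 in edgeR's quasi-likelihood test, which is 2.94%. Of these, 205 were higher in h4 (1.28%) and 264 lower (1.65%). Most differences were small: the median size over the called genes was 1.18-fold, 270 of the 469 were under 1.2-fold, and 18 exceeded 2-fold, 8 up and 10 down. All 469 had no overlap between the h2 and h4 libraries, which was also so for 22% of all tested genes (12.3% with h4 above and 9.67% with h4 below). The genes lower in h4 were more abundant and longer, with a median of 93.4 CPM and an estimated transcript length of 3825 bases, against 41.8 CPM and 2857 bases for those higher in h4 and 21.3 CPM and 2602 bases for all tested genes. The median log2 fold change over all tested genes was 0.0006.

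The number of calls moved with single libraries. It was 340 without h2 replicate 1, 166 without h2 replicate 2, 306 without h2 replicate 3, 188 without h4 replicate 1, 458 without h4 replicate 2 and 305 without h4 replicate 3. A core of 121 genes, 50 higher and 71 lower, was called in each of these 6 fits. With the Xist covariate 440 genes were called, 183 higher and 257 lower, and 361 of them were among the 469. DESeq2 called 382 genes, 152 higher and 230 lower, with 332 among the 469. None of the 469 changed sign in any of the 12 alternative fits.

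**Figure D1:**
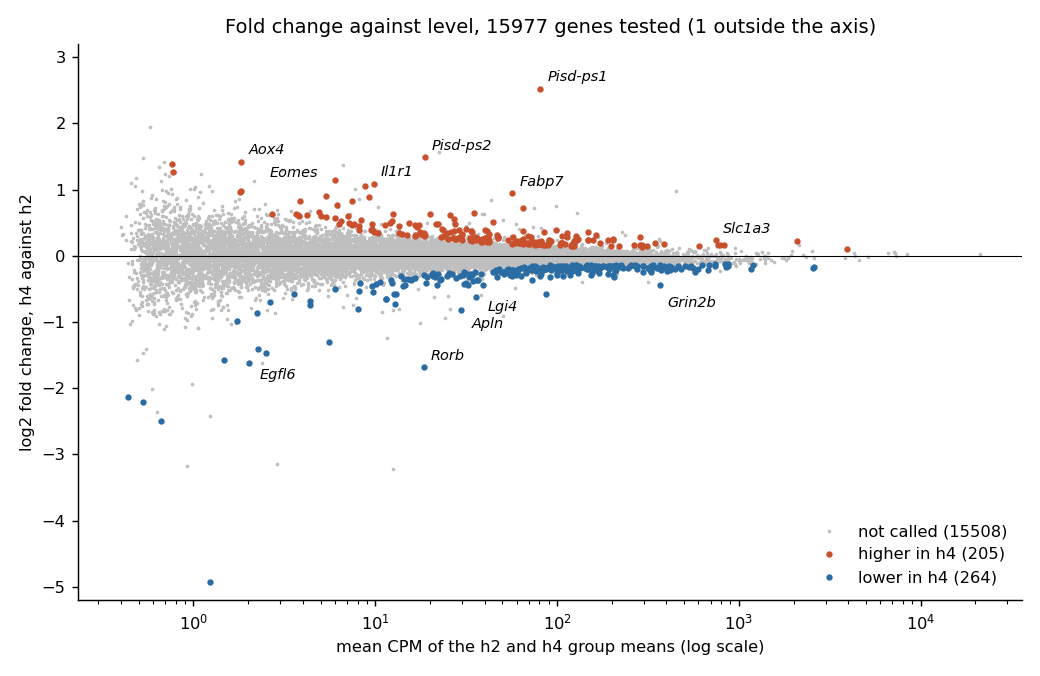
Log2 fold change of h4 against h2 for each tested gene (vertical axis) against the mean CPM of the group means (horizontal axis, log scale). The 205 genes called higher in h4 are orange, the 264 called lower blue and the rest grey, and called genes above about 100 CPM lie close to 0.

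Among called genes with at least 1 CPM over the 6 libraries that are not predicted genes, Rorb itself had the largest fall. Rorb (ENSMUSG00000036192) spans 18930605 to 19111196 on chromosome 19 of GRCm38, minus strand. It measured 31.1, 31.0 and 22.6 CPM in the h2 libraries and 9.11, 8.65 and 8.66 CPM in the h4 libraries. Every h4 library was below every h2 library, and the h4 values lay close together while h2 replicate 3 was lower than its 2 group mates. The means were 28.2 ± 4.85 CPM in h2 and 8.81 ± 0.262 in h4 (SD, n = 3), a log2 fold change of -1.69 (edgeR adjusted p = 4.68e-05, SE 0.13), or 0.311 of the h2 level. The call held in each fit without 1 library, with log2 fold changes between -1.83 and -1.60 and adjusted p no higher than 0.00525. The 2-sided exact permutation p was 0.1, the smallest that 3 against 3 libraries can give.

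The WT mean of Rorb, 17.3 ± 1.08 CPM, lay between the 2 alleles, and the h1 mean was 26.3 ± 5.89. Per kilobase of transcript the same order held, with a deposited TPM of 5.91 ± 0.988 in h2 and 1.91 ± 0.0603 in h4. The estimated transcript length of Rorb, which RSEM averages over the transcripts it assigns reads to, was 8914, 9293 and 9232 bases in h2 and 8694, 8587 and 8953 in h4. These groups overlapped, and the mean was lower in h4 by 402 bases (exact permutation p = 0.2). Which exons these reads came from is not shown by a value per gene.

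Il1r1 and Tyr are the genes that name the 2 backgrounds. Il1r1, the signalling receptor of interleukin 1 (ENSMUSG00000026072, plus strand of chromosome 1, 40225080 to 40317257), measured 5.93, 5.67 and 7.05 CPM in h2 and 10.9, 16.9 and 12.5 in h4. The groups did not overlap, and h4 replicate 2 was highest. Il1r1 rose by a log2 fold change of 1.09 (edgeR adjusted p = 0.00339, SE 0.16, exact permutation p = 0.1). Without h2 replicate 2 its log2 fold change was 1.02 and its adjusted p 0.0522, so that the call was lost there and nowhere else among the leave-outs. Tyr, tyrosinase of the pigment pathway, was low in both groups, at 1.23, 1.36 and 1.499 CPM in h2 and 0.732, 1.47 and 1.32 in h4. Its groups overlapped, and its log2 fold change of -0.26 (adjusted p = 0.697, SE 0.27) did not pass. Whether an exon of Il1r1 or a base of Tyr was altered cannot be read from gene-level counts, so these levels do not check the strains.

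**Figure D2:**
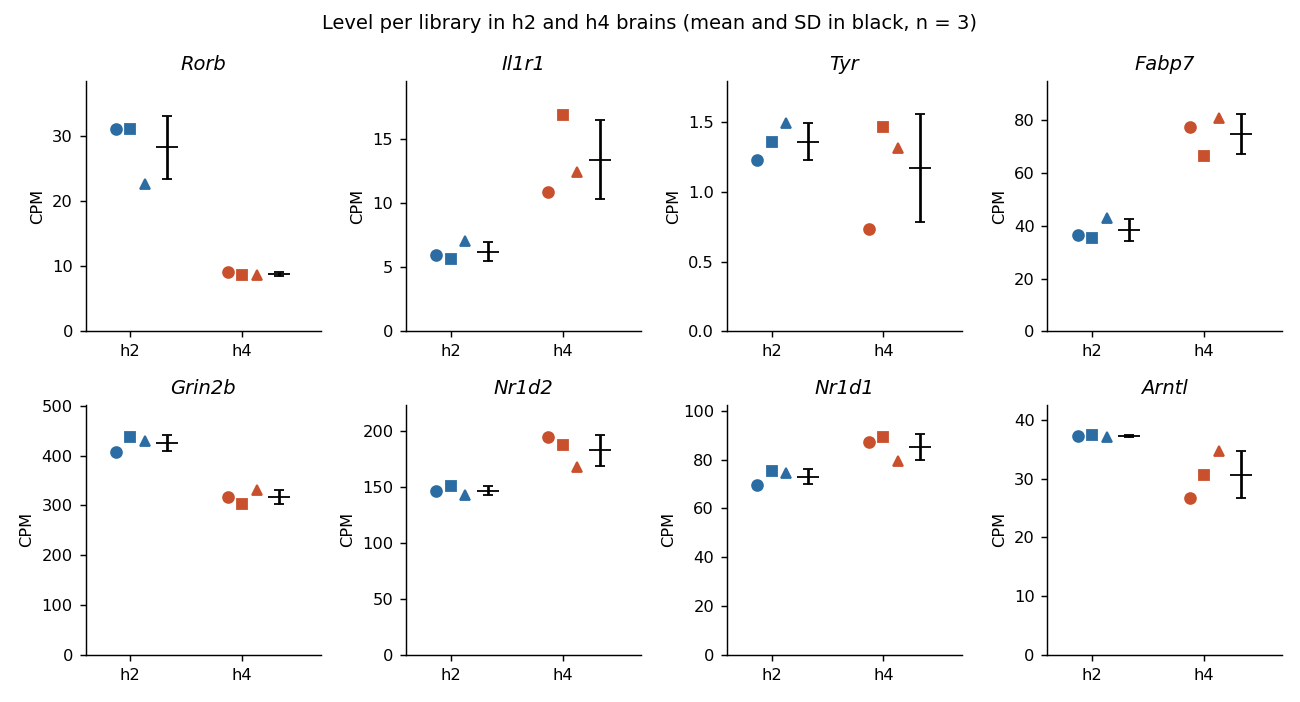
CPM per library (vertical axes, from 0) of 8 genes in h2 (blue) and h4 (orange), with circles, squares and triangles for replicates 1, 2 and 3 and the mean and SD in black. Rorb is near 9 CPM in every h4 library against 22.6 to 31.1 in h2, and Tyr overlaps between the groups.

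Of the 5 ROR and REV-ERB genes, Rorb fell and Nr1d2 and Nr1d1 rose. Nr1d2 was at 146, 150.4 and 143 CPM in h2 and 194, 187 and 167 in h4, a log2 fold change of 0.31 (adjusted p = 0.00318, SE 0.05). Nr1d1 was at 69.6, 75.1 and 74.4 CPM in h2 and 87.01, 89.3 and 79.3 in h4, a log2 fold change of 0.21 (adjusted p = 0.0237, SE 0.05). In both genes h4 replicate 3 was the lowest h4 library and still lay above the h2 libraries. The h1 means, at an h1 level of Rorb near that of h2, lay with h4: 181 ± 13.4 CPM for Nr1d2 and 85.6 ± 1.42 for Nr1d1. The WT means were 163 ± 1.09 CPM for Nr1d2 and 83.4 ± 11.7 for Nr1d1. Nr1d2 lost its call without h2 replicate 1 (adjusted p = 0.0854), and Nr1d1 kept its call only without h4 replicate 3, with adjusted p up to 0.132 in the other leave-outs and 0.247 in the fit to all 12 libraries. The 3' ends of Nr1d1 and Thra overlap on opposite strands, and the library kit does not mark strand. Rora, the family member of the cerebellum and thalamus, measured 188 ± 3.36 CPM in h2 and 199 ± 15.3 in h4, with an adjusted p of 0.469.

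Among 17 clock genes, 2 rose (Nr1d1 and Nr1d2) and 1 fell (Arntl), with a median log2 fold change of 0.14. Over all tested genes 1.28% were called higher and 1.65% lower. Arntl, the activator that REV-ERB represses and ROR activates, was at 37.3, 37.5 and 37.1 CPM in h2 and 26.7, 30.6 and 34.8 in h4. Its WT mean was 33.4 ± 2.07 CPM, and its h1 mean of 30.1 ± 2.66 lay with h4. The h2 libraries were nearly equal and each h4 library lay below them, at a log2 fold change of -0.29 (adjusted p = 0.0345, SE 0.07). It was called in only 1 of the 6 leave-outs, without h4 replicate 3, with adjusted p up to 0.173 in the rest, and at 0.0592 with the Xist covariate. Of the 17, 13 had a value above 0, and those of Per1 (0.72, SE 0.21, adjusted p = 0.224), Per2 (0.50, SE 0.20, adjusted p = 0.316) and Ciart (0.38, SE 0.11, adjusted p = 0.0526) did not pass. The count of risen clock genes was 0 without h2 replicate 1 and 5 without h4 replicate 3. The hour at which each brain was taken is not stated, so time of day and genotype cannot be told apart.

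A strict form of the ROR site, TAGGTCA, was looked for on both strands in RefSeq promoter windows of GRCm38.p6, from 250 bases before to 50 bases after the start. Each TAGGTCA also holds the shorter core AGGTCA. Of the 163 genes higher in h4 with a window, 4 held TAGGTCA (2.45%), of 193 lower 2 did (1.04%), and of all 12120 tested genes with a window 272 did (2.24%). For AGGTCA the shares were 13.5%, 13.5% and 15.1%, and over all 32851 windows of the table they were 16.3% for AGGTCA and 2.61% for TAGGTCA. With only 4 and 2 called genes holding TAGGTCA, its shares are a description and give no direction. The shares with AGGTCA were slightly below that of all tested genes, and no share was tested. The 6 called genes with TAGGTCA were Fabp7, Slc4a7, Scp2 and Hnrnph1, which rose, and Arntl and Sipa1l1, which fell. The windows of Arntl and Fabp7 are shown because they are the clock gene and the largest change among these 6. Capitals mark the match, which stands on the reverse strand in Fabp7. A match describes the sequence, and whether a receptor was bound there was not measured.
Arntl, plus strand, chr7:113207261-113207560: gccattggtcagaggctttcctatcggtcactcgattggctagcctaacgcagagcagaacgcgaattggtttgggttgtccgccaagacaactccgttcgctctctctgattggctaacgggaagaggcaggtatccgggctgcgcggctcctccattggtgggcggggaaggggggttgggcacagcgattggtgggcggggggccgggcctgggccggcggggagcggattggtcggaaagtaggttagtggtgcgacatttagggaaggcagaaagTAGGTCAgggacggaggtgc
Fabp7, plus strand, chr10:57784673-57784972: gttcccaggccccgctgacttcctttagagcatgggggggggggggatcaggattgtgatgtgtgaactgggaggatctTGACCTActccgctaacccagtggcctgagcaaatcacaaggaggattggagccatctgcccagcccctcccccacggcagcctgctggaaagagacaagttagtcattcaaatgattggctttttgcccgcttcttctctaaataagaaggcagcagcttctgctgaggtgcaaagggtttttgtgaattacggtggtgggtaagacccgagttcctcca

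Fabp7 (ENSMUSG00000019874, chromosome 10), the brain fatty acid binding protein of radial glia and astrocytes, had the largest rise among genes above 20 CPM that are neither pseudogenes nor predicted genes, a description chosen after the values were seen. It was at 36.5, 35.5 and 43.0 CPM in h2 and 77.5, 66.5 and 80.8 in h4. Every h4 library was above every h2 library, and the WT mean of 42.1 ± 1.60 lay with h2. The log2 fold change came to 0.95 (adjusted p = 0.000591, SE 0.09), and the call held in all 6 leave-outs.

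The other large rises fell on genes of several roles. Eomes, a T-box transcription factor of cortical progenitors and of glutamatergic neurons of the olfactory bulb, was at 2.62, 3.36 and 5.01 CPM in h2 and 8.12, 8.38 and 8.55 in h4. The h4 values were close together and above all h2 values, at a log2 fold change of 1.14 (adjusted p = 0.00104, SE 0.16). Because Eomes marks the olfactory bulb, a list of 11 bulb genes was added after the calls were seen: 7 were tested, none was called by edgeR or DESeq2 or had an unadjusted p under 0.05, and their sum was 43.6 to 48.7 CPM in h2 and 45.8 to 51.8 in h4. Aox4, an aldehyde oxidase, rose by a log2 fold change of 1.42 (adjusted p = 0.00479, SE 0.27) from 0.969 ± 0.231 to 2.70 ± 0.912 CPM (SD, n = 3). Thbs4, a secreted thrombospondin made by astrocytes, rose by 1.06 (adjusted p = 0.0103, SE 0.18) from 5.63 ± 0.224 to 11.9 ± 3.10 CPM. Fas, a death receptor, rose by 0.97 (adjusted p = 0.0235, SE 0.23), from 1.2 ± 0.251 to 2.39 ± 0.355 CPM. Eomes and Aox4 kept their calls in all 6 leave-outs, while Thbs4 and Fas kept theirs in 2, with adjusted p of at most 0.103 and 0.135.

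The rest of the 15 largest rises ran from 0.64 to 0.98 on the log2 scale. Atoh8, a basic helix-loop-helix transcription factor, rose by 0.98 (adjusted p = 0.0431) and lost its call in each leave-out. Acer2, an alkaline ceramidase of the Golgi, rose by 0.89, from 6.29 ± 1.81 to 12.1 ± 0.681 CPM (adjusted p = 0.00642), and lost its call without h2 replicate 2 (adjusted p = 0.0715) or h4 replicate 1 (0.0509). Cybrd1, a ferric reductase, rose by 0.77 from 4.54 ± 0.572 to 7.72 ± 0.701 CPM and was called in all 6 leave-outs, as were Mroh7, Fam167a and Ccdc3. Nostrin, a regulator of endothelial nitric oxide synthase, rose by 0.65 (adjusted p = 0.0439) and was called in only 1 leave-out. Pisd and Sfi1 complete the 15 and are described below with their near copies.

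The next falls are given with the role of each protein. Apln encodes apelin, the secreted ligand of the apelin receptor, and had the second smallest adjusted p of all genes, after Pisd-ps2. It was at 33.8, 40.2 and 38.7 CPM in h2 and 22.4, 20.8 and 21.4 in h4. The groups were far apart against their spread, with a log2 fold change of -0.82 (adjusted p = 1.11e-06, SE 0.07), and the WT mean was 30.7 ± 1.72. Egfl6, a secreted protein with EGF repeats, fell by 1.62 on the log2 scale, from 3.04 ± 0.694 to 0.978 ± 0.253 CPM (adjusted p = 0.000977). Pdzph1 fell by 1.58, from 2.22 ± 0.264 to 0.737 ± 0.274 CPM (adjusted p = 0.00247). Chrdl1, a secreted BMP antagonist made by astrocytes, fell by 0.58, from 15.1 ± 1.54 to 10.2 ± 0.712 CPM (adjusted p = 0.00215). Each of these 4 kept its call in all 6 leave-outs.

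Lgi4, a secreted protein that acts in glial ensheathment of axons, was at 43.7, 43.1 and 43.5 CPM in h2 and 31.5, 24.3 and 29.8 in h4. Its h2 values were nearly equal, and h4 replicate 2 was lowest, at a log2 fold change of -0.62 (adjusted p = 0.000178, SE 0.07). Fxyd3, a regulator of the sodium pump, overlaps Lgi4 on the opposite strand and fell by 1.46 (adjusted p = 0.0391, SE 0.32), with a call in 1 of 6 leave-outs. Reads of this pair cannot be told apart where they overlap. Chac1, which degrades glutathione, fell by 0.74 (adjusted p = 0.00778), Rlbp1, a retinaldehyde carrier of glia, by 0.57 (adjusted p = 0.00144), and Heph, a copper-dependent ferroxidase, by 0.54 (adjusted p = 0.00339), each in all 6 leave-outs. Rsc1a1, which lies within Ddi2, fell by 0.80, Cd180, a toll-like receptor relative that overlaps Mast4, by 0.70 and Zbtb3 by 0.58. Cd180 kept its call in 1 leave-out and Zbtb3 in none, while Rsc1a1 was called in all 6.

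**Figure D3:**
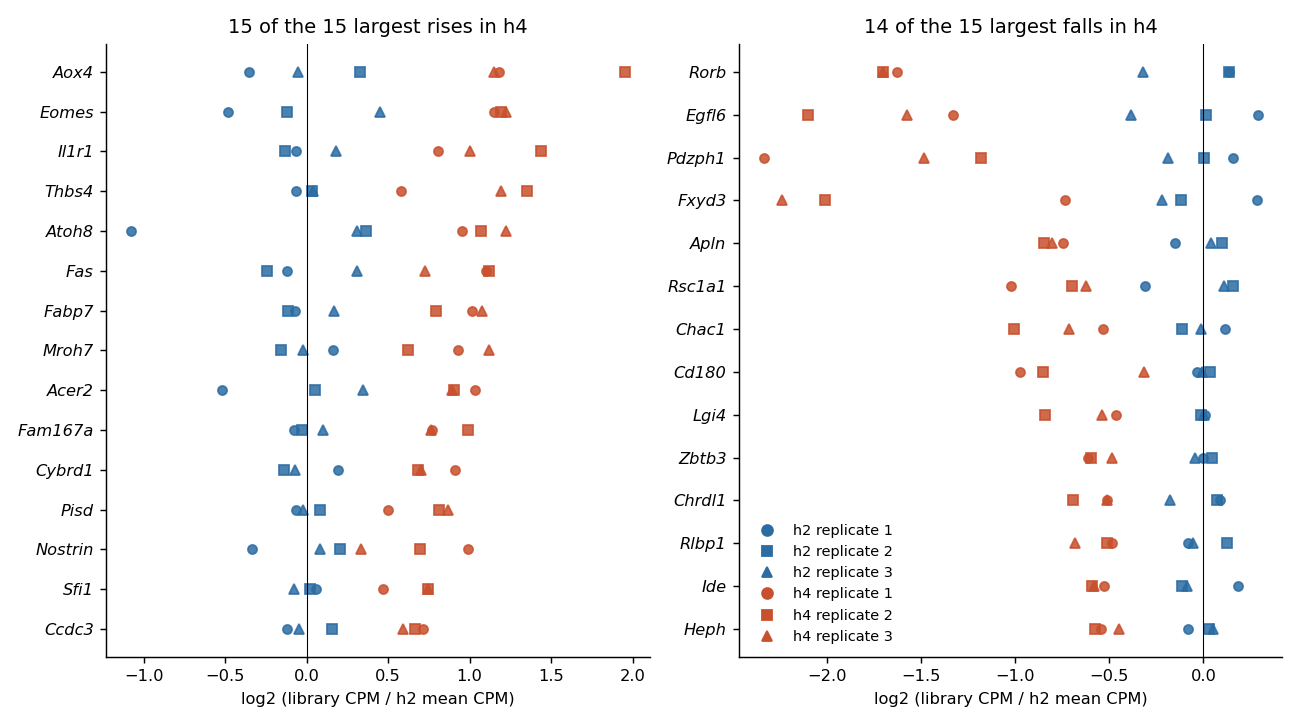
Each library's CPM relative to the h2 mean, on a log2 scale (horizontal axis), for the 15 largest rises and 14 of the 15 largest falls (vertical axis), with h2 in blue, h4 in orange and a marker shape per replicate. Genes were taken only where no h4 library lay among the h2 libraries, and the gap is narrow for Nostrin and Cd180.

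Ide, insulin-degrading enzyme, was the most abundant of the 15 largest falls, at 118, 95.9 and 97.7 CPM in h2 and 71.9, 68.7 and 69.3 in h4. Its log2 fold change came to -0.57 (adjusted p = 0.00638, SE 0.08), and it was called in all 6 leave-outs. The WT mean of 66.2 ± 1.42 CPM was close to the h4 mean of 69.9 ± 1.69, and the h1 mean was 96.1 with an SD of 31.0. In the fit to all 12 libraries, where that spread enters, the adjusted p of Ide was 0.231. Its neighbours Fgfbp3 and Btaf1, looked at after the values were seen, had log2 fold changes of -0.44 (adjusted p = 0.1) and -0.14 (adjusted p = 0.133).

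Glutamate receptor subunits that were called were all lower in h4. Of 22 tested, 3 fell and none rose, 18 were below 0, and the median log2 fold change was -0.06 against 0.0006 for all genes, of which 1.65% were called lower. Grin2b, the NMDA receptor subunit that binds glutamate and dominates early in postnatal life, was at 406, 438 and 429.8 CPM in h2 and 316, 302 and 330.2 in h4. The lowest h2 library exceeded the highest h4 library by a wide margin, with a log2 fold change of -0.44 (adjusted p = 3.12e-06, SE 0.04), and the WT mean of 440.4 ± 45.5 lay with h2. Grin2b was called in all 12 alternative fits. Grin1, the obligatory NMDA subunit, fell by 0.15 (adjusted p = 0.0267, SE 0.04) and Grm7, a presynaptic metabotropic receptor, by 0.22 (adjusted p = 0.0258, SE 0.05). Grin1 kept its call in 1 leave-out and Grm7 in 2, with adjusted p up to 0.139 and 0.162. Grin1 overlaps the antisense gene Grin1os. Grin2a, the NMDA subunit that gains weight in the adult, had a log2 fold change of -0.34 (SE 0.10) that did not pass (adjusted p = 0.11). The AMPA subunits Gria1, Gria2, Gria3 and Gria4 ranged from -0.06 to 0.07.

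Of 16 sodium and calcium channel subunits, 4 fell, none rose and 13 were below 0, with a median of -0.07, again beside 1.65% called lower over all tested genes. Cacna1i, a low-threshold calcium channel of thalamic neurons, was at 87.1, 92.01 and 86.7 CPM in h2 and 72.3, 69.9 and 75.1 in h4, which gave a log2 fold change of -0.30 (adjusted p = 0.000591, SE 0.04). It was called in all 6 leave-outs. Cacna1a, the P/Q-type channel of presynaptic terminals, fell by 0.25 (adjusted p = 0.023), Scn4b, a sodium channel beta subunit abundant in the striatum, by 0.19 (adjusted p = 0.046) and Scn8a, a sodium channel of the axon initial segment, by 0.16 (adjusted p = 0.0237). Cacna1a and Scn8a kept their calls in 2 leave-outs and Scn4b in 1, and Scn4b was not called with the Xist covariate (adjusted p = 0.0758). Fits without 1 library called 1 to 4 channel genes and 1 to 4 glutamate receptor genes, which can include genes not called in the main fit. The glutamate receptor count was 1 without h2 replicate 2, h4 replicate 1 or h4 replicate 3, and the channel count was 1 without h2 replicate 2 or 3. No rise was called in either list in any fit.

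Other neuronal lists had fewer calls, beside 1.28% called higher and 1.65% called lower over all tested genes. Of 8 pan-neuronal genes, 2 fell: Slc12a5, the neuronal potassium chloride cotransporter, by 0.20 (adjusted p = 0.00217, SE 0.03), from 510.2 ± 5.09 to 449 ± 4.56 CPM, and Syt1, the calcium sensor of synaptic vesicles, by 0.14 (adjusted p = 0.0166), the latter in 3 leave-outs. Of 16 striatal genes, Adcy5, the striatal adenylyl cyclase, fell by 0.19 (adjusted p = 0.0207) beside Scn4b, and 13 were below 0 with a median of -0.11. The striatal count was 6 without h4 replicate 2 and 0 without h2 replicate 2 or 3 or h4 replicate 1 or 3. The summed striatal level was 1610 to 1630 CPM in h2 and 1376 to 1643 in h4, so the groups overlapped. Of 14 genes of cortical layer 4 and upper layers, Rorb was the only call; 12 were below 0, with a median of -0.07. Of 14 GABA-A receptor subunits, Gabrg1 alone rose, by 0.27 (adjusted p = 0.00547, SE 0.05). Th, the first enzyme of dopamine synthesis, rose by 0.36 (adjusted p = 0.0492) and lost its call in every leave-out.

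In astrocytes the markers went both ways. Of 15 tested, 3 rose and 1 fell, with a median of 0.11, beside 1.28% called higher and 1.65% lower over all tested genes. Slc1a3, the glutamate transporter GLAST, was at 684, 672 and 689 CPM in h2 and 812, 808 and 809 in h4, which gave a log2 fold change of 0.24 (adjusted p = 0.000283, SE 0.03). The h4 values were nearly equal and lay above all h2 values, and the call held in all 6 leave-outs. Gjb6, connexin 30, rose by 0.31 (adjusted p = 0.0105, SE 0.06) and S100b by 0.15 (adjusted p = 0.0181, SE 0.03). S100b overlaps Dip2a. Slc1a2, the other main glutamate transporter of astrocytes (GLT-1), fell by 0.18 (adjusted p = 0.021, SE 0.04), from 2713 ± 149 to 2419 ± 73.0 CPM. Gjb6 and Slc1a2 each kept their calls in 2 leave-outs and S100b in 3, Gjb6 and Slc1a2 were not called in the fit to all 12 libraries (adjusted p = 0.235 and 0.106), and the number of risen astrocyte genes was 1 without h2 replicate 2 or h4 replicate 1 and 5 without h4 replicate 2. The summed astrocyte level overlapped, at 9485 to 9977 CPM in h2 and 9616 to 9832 in h4.

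A list of 15 genes of neural stem cells and radial glia, added after the rise of Fabp7 and Thbs4 had been seen and therefore no independent evidence, had 4 rises and no fall: Fabp7, Thbs4, Slc1a3 and Tnc, an extracellular matrix protein that rose by 0.47 (adjusted p = 0.0109, SE 0.10). The defining stem cell genes Nes, Pax6 and Hes5 had log2 fold changes of 0.01, 0.02 and 0.05 and did not pass. Among 14 genes of immature neurons and progenitors, Eomes rose and so did Top2a, a marker of dividing cells, by 0.60 (adjusted p = 0.0237, SE 0.14), with 2 of 6 leave-outs and an adjusted p of 0.0556 in the fit to all 12 libraries. DESeq2 gave neither of these 2 genes an adjusted p. The share called higher over all tested genes was 1.28%, which stands beside the counts of rises in these lists. Of 14 oligodendrocyte precursor genes, Ptprz1, a receptor phosphatase, rose by 0.19 (adjusted p = 0.00992) and Vcan, a proteoglycan, by 0.24 (adjusted p = 0.0228). Ptprz1 kept its call in 3 leave-outs and Vcan in 2, and neither was called without h2 replicate 2 or h4 replicate 1. No gene of the 17 of myelinating oligodendrocytes was called by edgeR or DESeq2, 1 had an unadjusted p under 0.05, and their median was -0.04. Other glial genes went both ways. Those that follow were picked after their rise had been seen, while Chrdl1, Rlbp1 and Lgi4, described above, fell: Slc14a1, a urea transporter, rose by 0.61 (adjusted p = 7.06e-05), Serpina3n, a protease inhibitor of reactive astrocytes, by 0.63 (adjusted p = 0.000591), and Myoc by 0.51 (adjusted p = 4.68e-05), each in all 6 leave-outs.

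**Figure D4:**
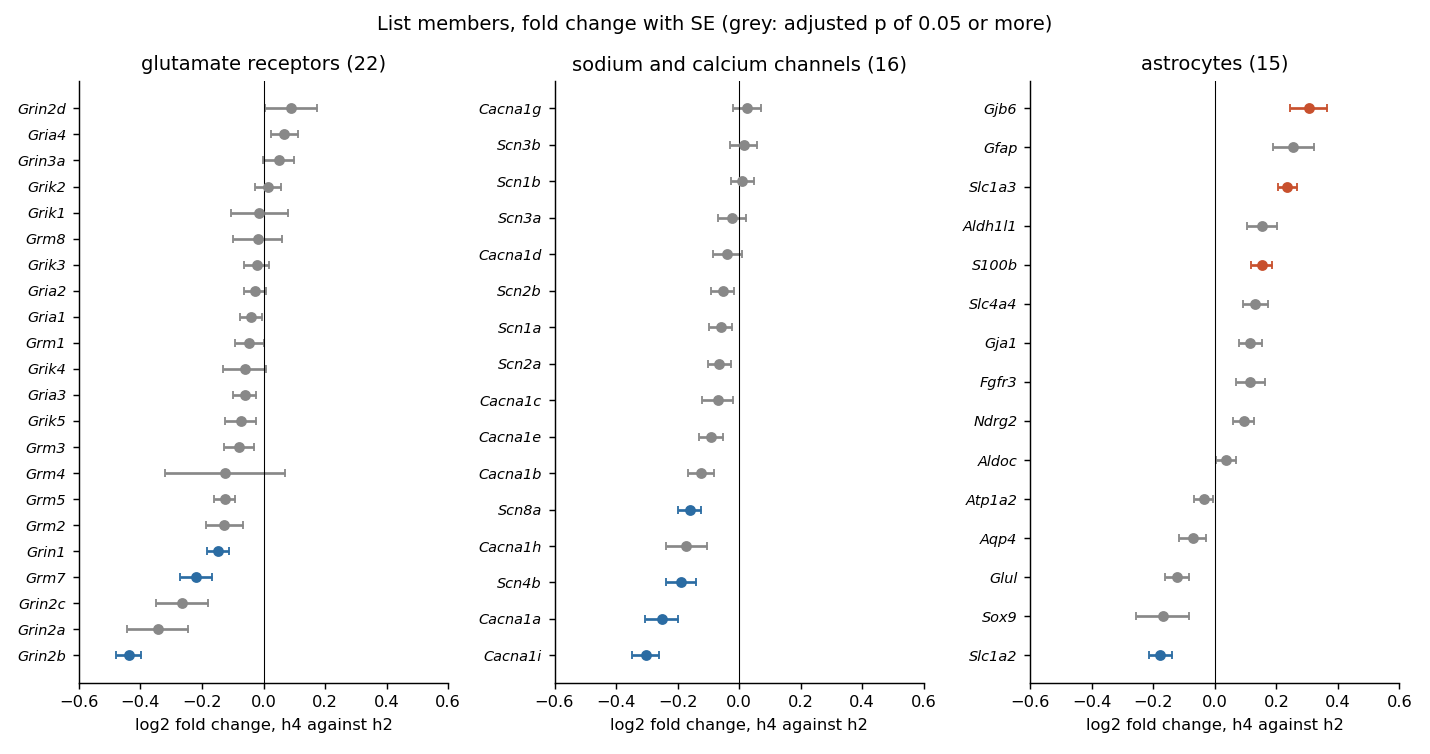
Log2 fold change of h4 against h2 with its SE (horizontal axis) for each tested member of 3 lists: 22 glutamate receptor subunits, 16 sodium and calcium channel subunits and 15 astrocyte genes. Called rises are orange, called falls blue and the rest grey, with Grin2b farthest to the left of the first panel and both directions called in astrocytes.

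At the vessel wall, 2 of 15 endothelial genes fell: Cldn5, the tight junction protein of the blood-brain barrier, by 0.41 (adjusted p = 0.0072, SE 0.08), from 36.0 ± 4.06 to 27.1 ± 1.98 CPM, and Kdr, the VEGF receptor, by 0.37 (adjusted p = 0.0115, SE 0.08). The median of the list was 0.02, beside shares of 1.28% called higher and 1.65% called lower over all tested genes. The summed level went the other way from these 2 genes, at 531 to 547 CPM in h2 and 557 to 568 in h4. Both calls were lost without h4 replicate 1 (adjusted p = 0.0546 and 0.0828). That of Kdr was also lost without h2 replicate 2 (0.0655) and in the fit to all 12 libraries (0.207). The h1 means were lower still, at 20.3 ± 2.91 CPM for Cldn5 and 15.8 ± 3.28 for Kdr. The WT means, 30.3 ± 1.58 CPM for Cldn5 and 21.7 ± 2.51 for Kdr, lay between h2 and h4, with h2 the highest group. In the list of meningeal and barrier genes, Ptgds, the prostaglandin D synthase of the meninges, rose by 0.16 (adjusted p = 0.00997) and Col3a1, a fibrillar collagen, by 0.31 (adjusted p = 0.0304). Ptgds lost its call without h2 replicate 2 (adjusted p = 0.0629) or h4 replicate 3 (0.0516) and in the fit to all 12 libraries (0.0548). Col3a1 lost its call in each leave-out, with adjusted p up to 0.145, and with DESeq2 (0.0842). Aldh1a1, a retinaldehyde dehydrogenase, was the only call of 17 retinoid genes: it rose by 0.24 (adjusted p = 0.00129, SE 0.04) from 115 ± 4.07 to 137 ± 1.96 CPM in all 6 leave-outs.

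Stress genes were called in both directions, beside 1.28% called higher and 1.65% called lower over all tested genes. Of 22 genes of folding and stress in the endoplasmic reticulum, the chaperones Hspa5 (BiP) and Pdia4 were higher in h4 than in h2. Both differed by 0.29, with adjusted p of 0.0484 and 0.00967. Mean Hspa5 was 256.5 CPM in h2, 315 in h4, 363 in WT and 335 in h1. Mean Pdia4 was 42.2, 52.2, 58.8 and 54.9 CPM in the same order, so h2 was the lowest group for both. The transcription factor Atf4 and asparagine synthetase Asns fell, by 0.32 (adjusted p = 0.00065) and 0.21 (adjusted p = 0.0154). Atf4 was at 109, 99.6 and 96.0 CPM in h2 and 79.6, 81.7 and 84.3 in h4, so that each h4 library was below each h2 library, and its call held in all 6 leave-outs. In a list of 18 ATF4 targets added after these calls were seen, 4 fell, namely Atf4, Asns, Chac1 and Sesn2 (by 0.41, adjusted p = 0.0127), and 1 rose, the cystine transporter Slc7a11 (by 0.37, adjusted p = 0.00071). The other 13 did not pass, and the median of the list was 0.00. Hspa5, Asns and Sesn2 kept their calls in 2 leave-outs and Pdia4 in 4, and Hspa5 was not called in the fit to all 12 libraries (adjusted p = 0.11). Hspa1a, which rose by 0.54 (adjusted p = 0.0235), is near-identical to Hspa1b, so its value is uncertain.

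Steroid and activity genes were mostly above 0, with 1 call. Of 17 glucocorticoid responsive genes tested, Sult1a1 rose (0.47, adjusted p = 0.0322), beside 1.28% called higher over all tested genes. All 17 were above 0, and the median was 0.31 against 0.0006 for all tested genes. Sult1a1 was called in 2 leave-outs, and its adjusted p was 0.41 in the fit to all 12 libraries. Its means were 6.23 CPM in h2, 8.65 in h4, 8.60 in WT and 12.4 in h1. The libraries of a group varied widely in this list: Sgk1, a glucocorticoid-induced kinase, was at 47.9, 57.4 and 111 CPM in h2 and 141, 142 and 90.3 in h4, and its groups overlapped. The number of calls in the list was 0 without h2 replicate 1 or 2 and 4 without h2 replicate 3. Of 23 immediate early genes of neuronal activity, none was called by edgeR and 2 by DESeq2, 5 had an unadjusted p under 0.05, 20 were above 0, and the median was 0.30. Their sum was 685.5, 1000 and 956 CPM in h2 and 1054, 1164 and 1243 in h4, with no overlap. Handling and hour of death are not stated, and their part in these values was not tested.

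In the list of interleukin 1 receptors and signalling, 18 genes were tested, beside 1.28% called higher and 1.65% called lower over all tested genes. Il1r1 rose and Irak2, a kinase downstream of the receptor, fell by 0.36 (adjusted p = 0.0304, SE 0.09), from 16.2 ± 0.108 to 12.7 ± 1.30 CPM. Irak2 kept its call in 1 leave-out. Over all 40 lists, 19 had a called member, 20 had tested members and no call, and 1, of pituitary and pineal genes, had no member that passed the low-count filter. In the 20 lists without a call, 45 of 294 entries (15.3%) had an unadjusted p under 0.05, against 16.6% of all tested genes, and DESeq2 called 4. Besides the myelin and activity lists, these were deep cortical layers, thalamus, cerebellum, hypothalamic peptides, interneurons, microglia, mural cells, choroid plexus, MHC class I, interferon stimulated, cholesterol synthesis, mitochondrial, oxidative phosphorylation, Hox, iron, ID and BMP, sex-linked and blood genes. List medians ran from -0.11 to 0.31.

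Genes within 20 Mb were counted around the mutated gene Rorb and around Il1r1 and Tyr, which name the backgrounds. Around Rorb, 12 of 347 tested genes were called (3.46%), around Il1r1 8 of 175 (4.57%) and around Tyr 6 of 238 (2.52%), beside 2.94% over all genes. All 8 calls around Il1r1 were Il1r1 itself or lay at higher coordinates, among 96 tested genes, while none of the 79 tested genes at lower coordinates was called. Around Rorb 6 of 247 genes at lower and 6 of 100 at higher coordinates, Rorb included, were called, and around Tyr 2 of 96 and 4 of 142. This split by side was not among the planned counts, counts the named gene on the higher side, and was not tested. Around Il1r1, besides Il1r1, Aox4 and Col3a1, the long noncoding RNA Pantr1 rose by 0.55 (adjusted p = 0.00178, SE 0.09) and Tgfbrap1, a TGFβ receptor adaptor, fell by 0.28 (adjusted p = 0.00385), at 2.47 and 2.87 Mb from Il1r1. Coq10b rose by 0.36, Clk1 by 0.25 and Bzw1 fell by 0.17, farther out. Around Rorb, Sgms1, a sphingomyelin synthase 13.3 Mb away, rose by 0.39 (adjusted p = 0.00104, SE 0.06), and Aldh1a1 lay 1.38 Mb away. Fas, Ide and Zbtb3, described above, were also called in this window, at 15.2, 18.2 and -10.3 Mb from Rorb. A minus marks lower coordinates. Neat1, a nuclear noncoding RNA, fell by 0.29 and Dagla by 0.17. Around Tyr, Mfge8, a bridging protein for phagocytosis, rose by 0.35 (adjusted p = 0.000183, SE 0.05) and Arrb1, β-arrestin 1, fell by 0.24 (adjusted p = 0.000744). Rlbp1, described above, was also called in the window of Tyr. Tenm4 fell by 0.21, Ucp2 rose by 0.28 and Crebzf by 0.18. Of these, Tenm4 kept its call in all 6 leave-outs, Neat1 in 4, Bzw1 in 3, Crebzf in 2, and Ucp2 and Dagla in 1, and Dagla was not called by DESeq2 (adjusted p = 0.0579). The window counts fell to 5 around Rorb and 5 around Il1r1 without h2 replicate 2, and to 4 around Rorb without h4 replicate 1.

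**Figure D5:**
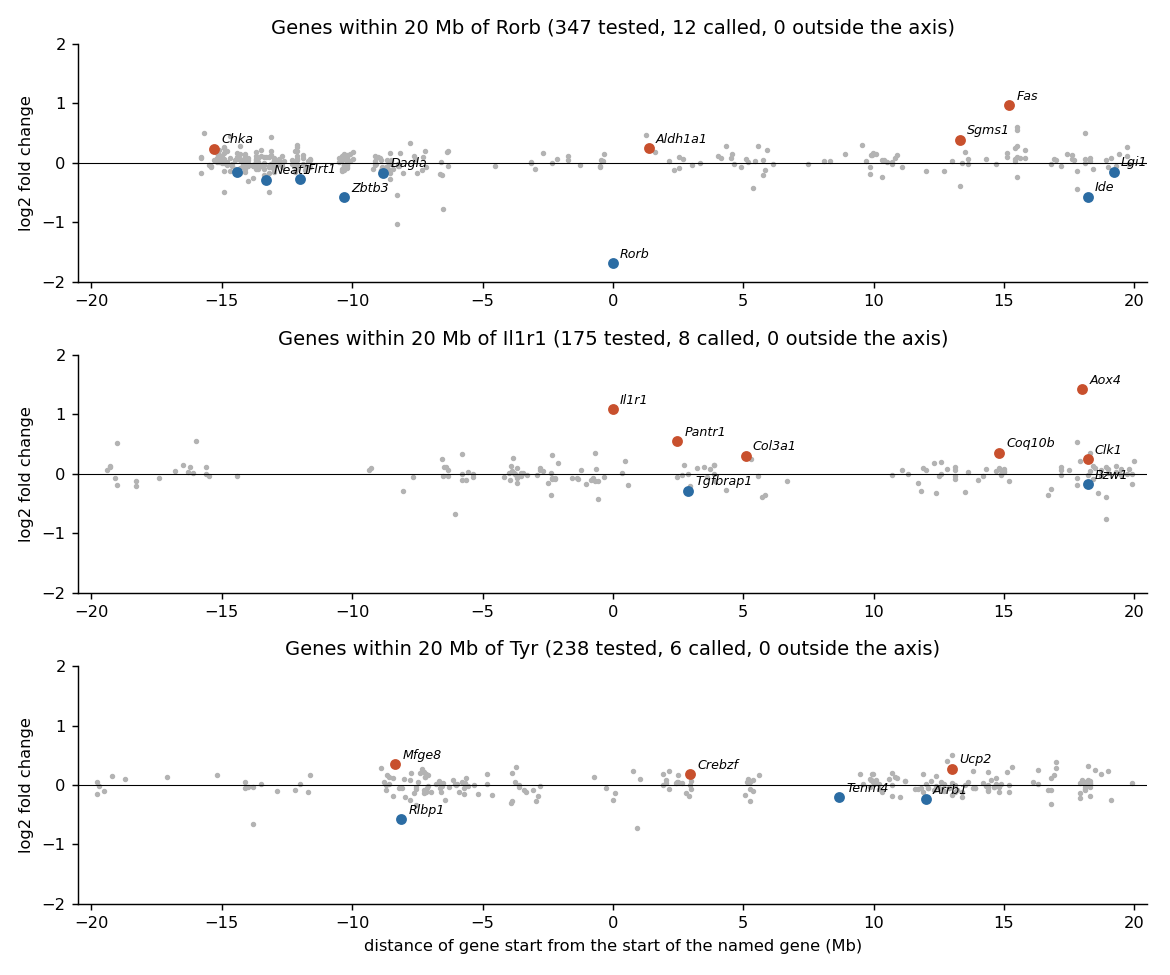
Log2 fold change of h4 against h2 (vertical axes) against the distance of each gene's start from that of Rorb, Il1r1 or Tyr in Mb (horizontal axes), with called rises in orange, called falls in blue and other tested genes in grey. There are 12 calls among 347 genes around Rorb, 8 among 175 around Il1r1 and 6 among 238 around Tyr. Those around Il1r1 are all at Il1r1 or to its right, a split that was not planned.

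Genes with near-identical copies held some of the largest values, and they are named here after their values were seen. Pisd-ps1, a pseudogene copy of Pisd, was at 21.6, 28.9 and 20.4 CPM in h2 and 109, 149 and 158 in h4, which gave a log2 fold change of 2.53 (adjusted p = 0.0218, SE 0.23), and Pisd-ps2 rose by 1.49 (adjusted p = 6.81e-07, SE 0.10). Pisd, a mitochondrial phosphatidylserine decarboxylase, rose by 0.72 and Sfi1, a centrosome protein, by 0.65. Pisd-ps2 kept its call in all 6 leave-outs, but Pisd-ps1 did so in 1, with adjusted p up to 0.0903 in the rest and 0.0621 with the Xist covariate. Pisd lost its call without h2 replicate 1 (adjusted p = 0.11) or h2 replicate 3 (0.0764) and with the Xist covariate (0.0599). RSEM shares reads among copies, so which of them carried the rise is uncertain. The WT means of Pisd-ps1 and Pisd-ps2, 31.7 ± 8.45 and 10.4 ± 1.19 CPM, lay with h2. Among predicted genes, Gm3893 fell by 1.30 (adjusted p = 1.76e-05), and Gm21093 and Gm3883 had equal values in every library and count as 1 reading, which fell by 0.65. Gm26675 summed to 152 expected counts over the h2 libraries and 3.89 over the h4 libraries. Of the 469 calls, 31 were predicted genes, pseudogenes or genes without a symbol.

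The WT and h1 libraries did not enter the test, and their means were set beside the called genes as a description. Xist was above 100 CPM in 3 of 3 WT and 1 of 3 h1 libraries, so the mix of sexes in WT differed from both tested groups. The WT mean was nearer to the h4 mean for 105 of the 469 called genes (22.4%) and nearer to the h2 mean for 364, while it was nearer to h4 for 44.7% of all tested genes. For the genes higher in h4 the share nearer h4 was 31.7%, and for those lower in h4 it was 15.2%. The h1 mean was nearer to h4 for 19.4% of the called genes and for 40.7% of all tested genes. Fabp7, Grin2b, Slc1a3 and Lgi4 had a WT mean nearer to h2, and Ide, Hspa5, Fas and Sgms1 one nearer to h4.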

How the data were processed

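Whole brains were measured by sequencing of poly(A) RNA with the TruSeq v2 kit, which does not mark strand, as 100 bp paired ends, per the labels. Bowtie2 2.2.0 and RSEM 1.2.12 were used, per the submitters' processing notes, and no source used here gives the genome build or annotation. The authors deposited 1 gene table per library with RSEM's expected counts, of which 77.7% of the values above 0 were whole, the deposited TPM and FPKM, and an estimated length in bases per gene. FPKM was not used in a test. Pairs that match several genes are shared among them, so near-identical copies exchange counts.

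Symbols and positions came from GENCODE M21 (GRCm38) for 37607 of 38924 identifiers, and promoter sequences from RefSeq (GRCm38.p6). Expected counts were rounded and tested with edgeR 4.0.16 in R 4.3.3 (robust quasi-likelihood, TMM, filterByExpr, 15977 genes kept and 22947 removed) on the 6 libraries. The threshold was 0.05 after Benjamini-Hochberg adjustment over all tested genes. Adjusted p-values are from edgeR except where DESeq2 is named. TMM factors were 0.993 to 1.01, and the biological coefficient of variation was 0.0573. Each library was 1 mouse, per the series design, so each counted as 1 sample. Gene counts of libraries within a group differed beyond sampling noise (chi-square per degree of freedom 2.36 to 4.48). Pairs alike in Xist had 3.44 in h2 and 2.36 in h4, and pairs unlike in Xist 4.28 to 4.48. Alternatives were DESeq2 1.42.0, all 12 libraries, RLE scaling, other filters, an Xist covariate, each library left out, stricter thresholds and narrower windows. The steps were tested on simulated counts for this contrast, over 15977 genes. Every simulated gene had the same coefficient of 0.0573, and changed genes were drawn above a minimum mean count, so differing spread between genes was not tried. The steps called 49 of 50 genes changed 3-fold, 50 of 50 changed 2-fold, 41 of 50 changed 1.5-fold, and 32 of 50 changed 1.25-fold. The estimate had the wrong sign in 1 of the last 50, and 10 of 15777 unchanged genes were called.

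The members and the 40 gene lists (616 entries, 599 distinct genes, 570 tested) were chosen with earlier results of these data known, and 3 more lists were added after the calls were seen. Named genes are Rorb, Il1r1, Tyr, Xist and Ddx3y, the 15 largest rises and falls among called genes with at least 1 CPM and no overlap (predicted genes, pseudogenes and genes without a symbol excepted), up to 5 called members per list, 2 of highest CPM where none was called, and up to 8 called genes per window. Other genes are named where stated. Some genes taken by the rule are left out of the text and figures.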

Additional observations from a re-analysis of the deposited data

How the results depend on the processing

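Depth was 14513825 expected counts or more per library, and genes under a few counts were not tested. With no low-count filter 973 genes were called, 455 higher and 518 lower. At an adjusted p under 0.01 there were 164 (72 and 92), and with a fold of at least 1.5 there were 51 (30 and 21). Without 1 library the counts ran from 166 to 458 in all, 80 to 186 higher and 85 to 272 lower, lowest without h2 replicate 2 or h4 replicate 1, with fewer samples in each fit. The log2 fold change of Il1r1 without 1 library ran from 0.89 to 1.22, with an adjusted p of 0.0522 without h2 replicate 2. Called genes near Rorb numbered 27 with no filter, 3 within 10 Mb and 2 within 5 Mb, those near Il1r1 15, 4 and 3, and those near Tyr 10 with no filter and 1 within 5 Mb. Without 1 library the counts were 4 to 10 near Rorb and 5 to 7 near Il1r1. The difference in estimated length of Il1r1, of -6.25 bases, ran from -26.4 to 6.43 without 1 library and changed sign without h2 replicate 2 (6.43), h2 replicate 3 (1.24) or h4 replicate 2 (3.46), and the log2 ratio of Tyr CPM ran from -0.411 to 0.033, the last without h4 replicate 1 (exact permutation p = 0.9); neither had passed a test. Scaling by RLE or a filter of 1 CPM in 3 libraries gave 446 and 458 calls. Of 95 called genes taken by the naming rule or chosen later, 44 were called in all 6 leave-outs, 12 lost their call in the fit to all 12 libraries, 11 with the Xist covariate and 4 with DESeq2, which gave no adjusted p to 21 of the 95 or to 4960 genes in all. The causes were not tested. No paired analysis was possible because the sample titles of the h2 and h4 mice share no replicate numbers, and the numbers used here were given in accession order.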
